A study of Mus musculus with 12 samples.

Results

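The subject here is the untreated baseline of tumor macrophage RNA in a mouse melanoma series, described gene by gene. Its members are the 3 libraries labelled Control, out of 12 libraries in the series, and they were taken by their labels alone. The series asks how therapies aimed at myeloid cells act on inflammation in melanoma. The other 9 libraries come from mice given an agonist of CD40, an inhibitor of the CSF1 receptor or both, and none of their values is used here, so no groups are compared and no test is made.

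The Control mice carried an inducible Cre recombinase, Tyr::CreER, whose tyrosinase promoter is active in pigment cells, and tumors were induced locally. All mice of the series carried the same engineered alleles, and a separate label calls the genotype wild type. Feeding and dosing started on day 30 after induction, with less than 100 mm3 of tumor in total, and ended after a further 30 days or at a tumor size of 2 cm3, per the labels' protocols. The protocols name normal chow and PBS as the counterparts of the agents. Each library is a pool of at least 3 tumors, so a pool and not a mouse is the replicate, and labels give no sex or exact age. The cells are labelled tumor-associated macrophages, but the labels name no gate by which they were sorted. Digested tumors were freed of red cells by lysis and of dead cells over a density medium.

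Macrophages in a tumor come largely from blood monocytes that enter through chemokine receptors such as CCR2 and then mature under colony-stimulating factor 1, the ligand of the receptor encoded by Csf1r. They take up dead cells and debris, load peptides onto MHC class II molecules, and release cytokines and chemokines that draw or restrain other leukocytes. Classical monocytes carry Ly6C and CCR2, non-classical monocytes patrol vessels and depend on the transcription factor encoded by Nr4a1, and both can be recovered from tumors beside mature macrophages.

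RNA was measured as paired 75-base reads without strand information, 6 libraries to a lane, from 50 ng of RNA per library. The estimated counts summed to 31698533, 30657791 and 28709482 in replicates 1, 2 and 3, and that order is kept for every set of 3 values below. The deposited values are TPM, transcript copies scaled to a total of 1000000 in each library, so that they already allow for transcript length and depth, and the level of a gene is the sum over its listed transcripts. Of 34989 genes, 10957 had at least 1 TPM in all 3 libraries, 6087 had at least 10 TPM, 1204 had at least 100 TPM and 132 had at least 1000 TPM. By mean level, 30.5% of protein coding genes and 19.9% of all genes had at least 10 TPM. Of 21986 protein coding genes, 1302 had a mean of at least 100 TPM and 10469 had a mean below 1 TPM. The list counts at 10 TPM, at 100 TPM and below 1 TPM given below stand beside those shares and counts. No estimated count was assigned to 14440 genes in any of the 3 libraries. The limit that a count of 0 allows, 3 counts, equals 0.0946, 0.0979 and 0.104 counts in a library of 1000000 (CPM), and it covers counting error only.

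The label was checked on its markers. Lyz2, which encodes the lysozyme of myeloid cells, stood at 16660.1, 19584 and 16328 TPM. Cd74, the invariant chain that guards MHC class II molecules, stood at 22972, 19227 and 23225 TPM. Csf1r, the receptor that macrophages need for survival, stood at 307, 287 and 307 TPM. All 3 markers were present in every library, with means ± SD (n = 3) of 17524 ± 1792, 21808 ± 2239 and 300.2 ± 11.6 TPM and abundance ranks of 4, 2 and 492 among all genes. This presence goes with the label but does not settle which cells were collected. Genes of monocytes, dendritic cells, natural killer cells and neutrophils, described further on, were present as well.

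A small number of genes held much of the RNA. The 10 most abundant genes took 15.1% ± 0.298 of all TPM (SD, n = 3), the 100 most abundant took 39.9% ± 0.788 and the 1000 most abundant took 74% ± 0.664. Housekeeping classes made up part of it: 80 cytoplasmic ribosomal protein genes held 11.6% ± 0.876 of TPM and 13 mitochondrially encoded genes held 2.91% ± 0.357. Immune and lysosomal classes were also large. MHC class II presentation genes held 3.55% ± 0.329, iron, haem and antioxidant genes 2.5% ± 0.052, MHC class I presentation genes 1.57% ± 0.0784 and cathepsins with their inhibitors 1.36% ± 0.111. The classes were similar in size in all 3 libraries, the largest SD being that of the ribosomal protein genes, which were highest in replicate 2.

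**Figure D1:**
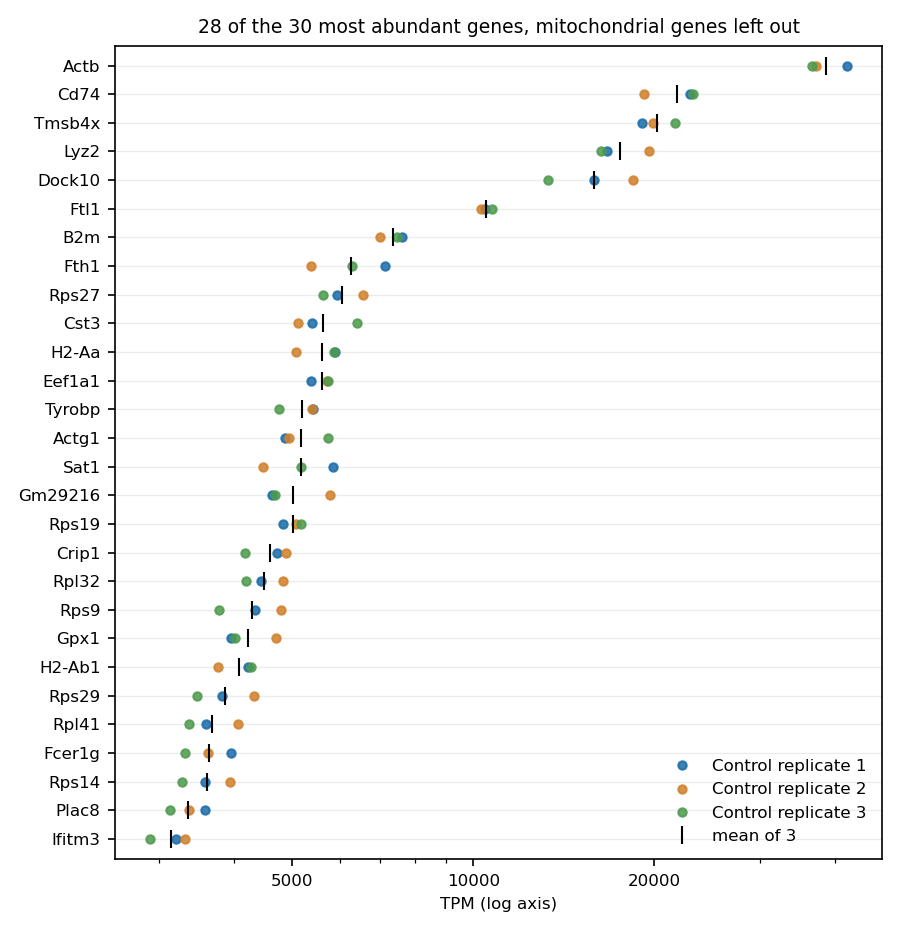
Each row is a gene, 28 of the 30 most abundant that are not mitochondrially encoded, with the TPM of the 3 Control libraries as coloured points and their mean as a black bar on a log axis. Levels run from 3134 TPM (Ifitm3) to 38543 TPM (Actb), and the 3 libraries lie close together beside the distance between genes.

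Genes of the actin skeleton led the ranking. Actb, cytoplasmic beta-actin on chromosome 5, stood at 41865, 37227 and 36538 TPM. Tmsb4x, which encodes the actin-binding peptide thymosin beta 4, stood at 19082, 19906 and 21655 TPM. The gamma form Actg1 was lower, at 4856, 4941 and 5732 TPM, and replicate 3 was its highest library. Cd74 ranked between Actb and Tmsb4x, and Lyz2 just after them, so an antigen presentation gene and an antibacterial enzyme gene stood among the actin genes at the head of the list.

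Iron storage and antioxidant genes followed. The light and heavy ferritin chains Ftl1 and Fth1 stood at 10447, 10316 and 10758 and at 7137, 5378 and 6284 TPM, and Gpx1, a glutathione peroxidase, at 3958, 4691 and 4018 TPM. Ftl1 differed little between the libraries (coefficient of variation, the SD as a percent of the mean, 2.16%), while Fth1 (14%) was lowest in replicate 2. The peroxide and superoxide scavengers Prdx1, Prdx5 and Sod1 were lower, at 1029, 657 and 579.8 TPM on average. Sat1, which acetylates polyamines, stood at 5846, 4472 and 5157 TPM and was also lowest in replicate 2. Other leading genes were B2m, the shared light chain of MHC class I molecules (7360.4 TPM on average), Cst3, the cysteine protease inhibitor cystatin C (5631 TPM), and the MHC class II chains H2-Aa (5606 TPM) and H2-Ab1 (4079 TPM).

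Signal adaptors ranked as high as housekeeping genes. Tyrobp, the adaptor DAP12 through which many activating myeloid receptors signal, stood at 5408, 5380.0 and 4756 TPM. Fcer1g, the signalling chain shared by Fc receptors, stood at 3949, 3617 and 3315 TPM. Replicate 3 was the lowest library for both. The first 30 also held ribosomal proteins (Rps27, Rps19, Rpl32, Rps9, Rps29, Rpl41 and Rps14, 3598 to 6038 TPM on average), the elongation factor Eef1a1 (5603), the LIM protein gene Crip1 (4583), the monocyte gene Plac8 (3356), the antiviral membrane protein gene Ifitm3 (3134), and Dock10 and Gm29216. Of the mitochondrially encoded genes, the subunits of cytochrome oxidase and ATP synthase mt-Co3, mt-Co2, mt-Atp6, mt-Atp8 and mt-Co1 were the most abundant, at 6614, 4947, 4374, 3363 and 2409.6 TPM, and each of the 5 was highest in replicate 2.

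For some of these entries a single transcript model carried the level. Dock10, a guanine nucleotide exchange factor gene of leukocytes, stood at 15899, 18424 and 13289 TPM and ranked 5. Of this, 15861, 18386 and 13252 TPM lay on Dock10-206, a single-exon transcript of 1899 bases annotated as a retained intron (GRCm38 chromosome 1, 80520498 to 80522396, minus strand). Without that transcript Dock10 stood at 37.6, 37.8 and 36.7 TPM, which is an ordinary level that hardly varied between the libraries.

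Lars2, the mitochondrial leucyl-tRNA synthetase gene, had the same form. It stood at 2562, 2532 and 2215 TPM in all, and at 6.8, 8.79 and 3.62 TPM without Lars2-209, a transcript annotated for nonsense-mediated decay. For Actb, the 241-base processed transcript Actb-209 held 18826, 16754 and 15173 TPM, and without it Actb stood at 23039, 20473 and 21365 TPM, about level with Cd74. TPM divides by length, so a short transcript reaches a high TPM from few reads.

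A mitochondrial copy also ranked among the first 30. Gm29216, a pseudogene on chromosome 1 (24615706 to 24616197, minus strand), stood at 4618, 5764 and 4672 TPM, above mt-Co1 itself at 2133, 2735 and 2361 TPM. The pseudogene aligned to mt-Co1 over 483 of its 492 bases with 1 mismatch (99.8% identity). Both were highest in replicate 2. The stretch around that mismatch is printed from the GENCODE M21 transcripts (GRCm38) because that base, shown in capitals, is the only difference within the aligned part. The Gm29216 stretch lies at chr1:24616155-24616188 (minus strand) and that of mt-Co1 at chrM:6390-6423 (plus strand).
Gm29216: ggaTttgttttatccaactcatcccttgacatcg
mt-Co1: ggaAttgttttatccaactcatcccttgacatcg
In the same way Gm9843, at 2778, 3244 and 2497 TPM, was identical over 402 bases to Fau, a gene of a ribosomal fusion protein that stood at 539, 636 and 431 TPM. The levels of such copies and of their parent genes are therefore uncertain. Processed pseudogenes in all held 3.77% ± 0.093 of TPM.

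Macrophage identity genes were present with a wide range of levels. Of 16 macrophage markers, 13 had a mean of at least 10 TPM, 9 of at least 100 TPM and none was below 1 TPM, and for comparison 30.5% of protein coding genes had a mean of at least 10 TPM. The summed level of the 16 was 43505, 41883 and 42851 TPM, most of it from Cd74 and Lyz2. Behind these stood the lysosomal glycoprotein gene Cd68 at 914, 867 and 871 TPM and Cd14, the co-receptor for bacterial lipopolysaccharide, at 1133, 473 and 694 TPM. Cd68 was even across the libraries (2.93%), whereas Cd14 was highest in replicate 1 and lowest in replicate 2 (43.8%).

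Further markers were Cybb, the catalytic subunit of the phagocyte oxidase (469, 524 and 513 TPM), and Aif1, the calcium-binding protein IBA1 (487, 404 and 419 TPM). Spi1, the myeloid master transcription factor PU.1, stood at 193, 183 and 164 TPM, and the integrin gene Itgam (CD11b) at 127, 112 and 113 TPM. Adgre1, which encodes the mouse macrophage antigen F4/80, stood at 89.3, 90.6 and 97.5 TPM. Fcgr1, the high-affinity Fc receptor for IgG, stood at 79, 65.4 and 62.8 TPM. Each of these differed by less than a factor of 1.5 between the highest and the lowest library.

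Markers of resident or long-lived macrophages were the lowest of the list. Mrc1, the mannose receptor, stood at 32.1, 23.4 and 16.8 TPM. The haemoglobin-haptoglobin receptor gene Cd163 stood at 5.75, 1.47 and 1.4 TPM, and Mertk, a kinase receptor for dead cells, at 4.77, 1.98 and 1.6 TPM. Siglec1, the sialic acid receptor CD169, stood at 1.66, 1.66 and 0.541 TPM. As sums over transcripts, Mrc1, Cd163 and Mertk were highest in replicate 1. The coding Mertk-201 alone stood at 0.660, 1.28 and 0.541 TPM, highest in replicate 2. The coding Mrc1-201 alone stood at 23.7, 23.4 and 14.9 TPM. Per unit of length, the sum of Csf1r exceeded that of Mertk, which includes a transcript not annotated as coding, by factors of 64.3, 145 and 192.

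**Figure D2:**
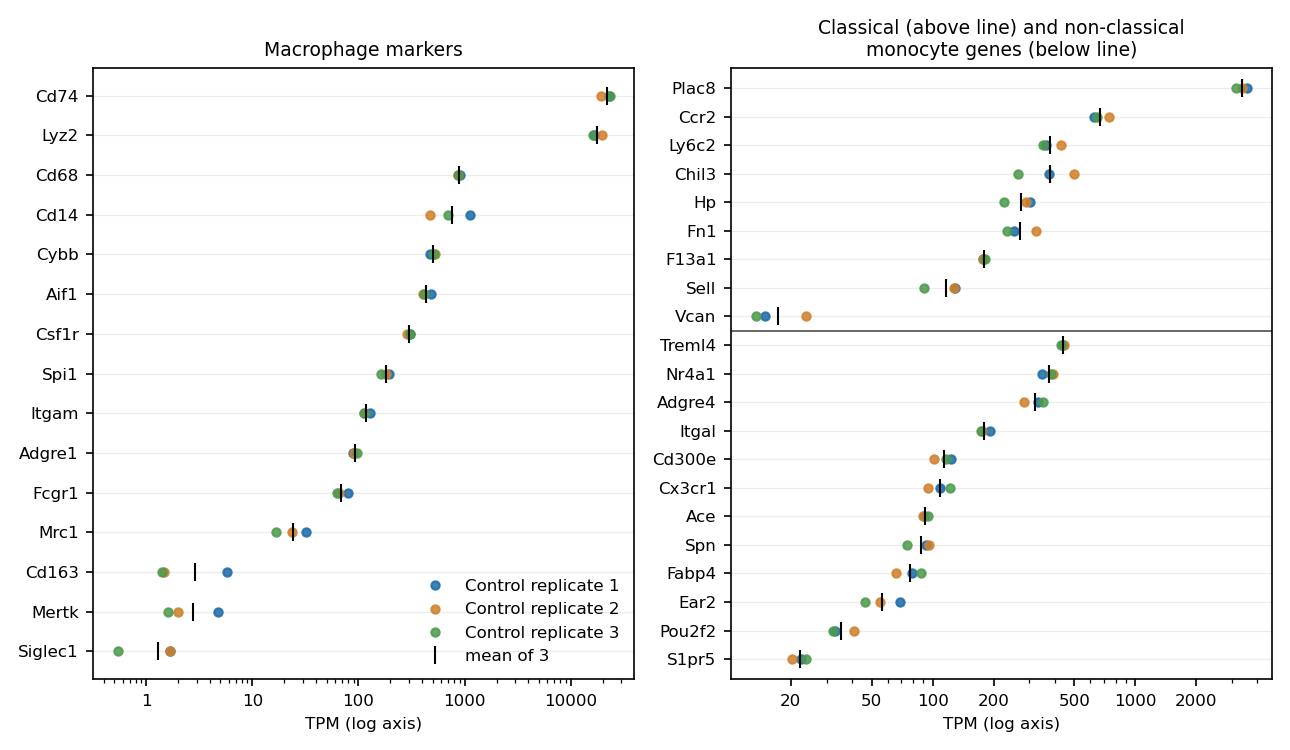
Rows are genes, coloured points the TPM of the 3 Control libraries and black bars their mean, on log axes, for 15 of the 16 macrophage markers (left) and for classical and non-classical monocyte genes (right). Cd74 and Lyz2 lie far above the rest, Cd163, Mertk and Siglec1 stay under 10 TPM, and every monocyte gene listed is above 10 TPM on average.

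Lyz2 has a close neighbour. Lyz1, the lysozyme gene of intestinal Paneth cells, lies beside it on chromosome 10 (117287797 to 117292868, minus strand, against 117277331 to 117282321 for Lyz2) and stood at 142, 123 and 98.9 TPM. The TPM of Lyz2 exceeded that of Lyz1 by factors of 117, 159.8 and 165. Both coding sequences are 447 bases with the stop codon and differ at 22 positions (95.1% identity), and the longest stretch without a difference is 118 bases, which is longer than a 75-base read. The first 180 bases of each, from the start codon, hold 15 of the 22 differences. They are printed from the GENCODE M21 transcripts (GRCm38), 5′ to 3′, with the differing bases in capitals, because these bases tell the paralogs apart.
Lyz2-201: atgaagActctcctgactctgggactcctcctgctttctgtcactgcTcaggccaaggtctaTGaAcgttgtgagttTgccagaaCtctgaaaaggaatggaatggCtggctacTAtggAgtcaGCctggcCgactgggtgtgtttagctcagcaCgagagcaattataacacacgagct
Lyz1-201: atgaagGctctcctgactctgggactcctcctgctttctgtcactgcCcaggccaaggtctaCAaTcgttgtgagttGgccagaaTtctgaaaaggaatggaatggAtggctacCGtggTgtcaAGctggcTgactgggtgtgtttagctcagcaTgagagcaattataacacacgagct
Reads from the identical stretches can come from either gene, so the level of Lyz1 is less certain than that of Lyz2.

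Genes of monocytes were present beside those of macrophages. All 9 classical and all 12 non-classical monocyte genes had at least 10 TPM, with summed levels of 5809, 5976 and 5136 and 1929.6, 1856 and 1937 TPM. Plac8, a gene of Ly6C-positive monocytes, led with 3570.3, 3369 and 3129 TPM. Ccr2, the receptor by which monocytes leave the marrow and enter tissue, stood at 622, 738 and 650.5 TPM, and Ly6c2, part of the Ly6C antigen, at 362, 429 and 349 TPM. Ccr2 and Ly6c2 were highest in replicate 2, and Plac8 in replicate 1.

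Chil3 (Ym1), a chitinase-like gene, stood at 377, 498 and 264 TPM, Hp (haptoglobin) at 304, 289 and 226 TPM and F13a1 (a clotting factor subunit) at 177, 177 and 181 TPM. Chil3 and Hp were lowest in replicate 3, while F13a1 was nearly equal in all 3 libraries. Fn1 is described with the isoforms below, since most of its TPM came from transcripts annotated with a retained intron.

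Among the non-classical genes, Treml4, a receptor of the TREM family, stood at 441, 444 and 431 TPM. The nuclear receptor gene Nr4a1 stood at 347, 391 and 385 TPM, and the adhesion receptor gene Adgre4 at 331, 281 and 349 TPM. These were even across the libraries, with Treml4 at 1.47%. The integrin gene Itgal averaged 179.7 TPM, the immunoglobulin-like receptor gene Cd300e 114 TPM and the fractalkine receptor gene Cx3cr1 109 TPM. The TPM of Ccr2 exceeded that of Cx3cr1 by factors of 5.69, 7.74 and 5.37, and that of Plac8 exceeded Mrc1 by factors of 111, 144 and 186. Nr4a1 is also known to be induced when tissue is dissociated, and the part of digestion in its level was not tested.

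Genes named for alternative activation, the state that interleukin 4 induces, were present in part. Of 18 members 13 had at least 10 TPM. Ccl22 led on average, at 726, 626 and 1595 TPM, and also stands on the list of mature dendritic cell genes described below. Retnla, a secreted resistin-like protein, stood at 904, 693 and 512 TPM and was highest in replicate 1. Ccl17 stood at 460.2, 468 and 823 TPM. Ccl22 and Ccl17 were highest in replicate 3, and Retnla was above both in replicates 1 and 2. Arg1, the enzyme that breaks down arginine, stood at 121, 117 and 182 TPM, and the lectin gene Mgl2 at 85.2, 54.6 and 88.5 TPM. Nos2, the enzyme that makes nitric oxide from the same amino acid, stood at 6.93, 1.92 and 8.5 TPM, so that Arg1 exceeded it by factors of 17.5, 61.1 and 21.5.

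Transcription factor genes of myeloid cells were nearly all detected, 42 of 48 at 10 TPM or more. Id2, an inhibitor of helix-loop-helix factors, led with 1087, 923 and 1244 TPM. The early response gene Fos stood at 631, 533 and 412 TPM, highest in replicate 1, and Klf6 at 368, 335 and 419.5 TPM. The interferon regulatory factors Irf5 and Irf1 averaged 290.0 and 243 TPM, above Irf7 (112) and Irf8 (102). Nfkb1, a subunit of NF-kB, was among the least variable genes of all, at 193, 195 and 195 TPM. Gata6, the factor of peritoneal macrophages, was at 0.438, 0 and 0 TPM, and Pparg, of alveolar macrophages, at 14.6, 7.82 and 13.1 TPM.

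Receptor genes as a kind were well covered. Over 12 receptor lists 253 different genes were measured. Of these 167 (66%) had a mean of at least 10 TPM and 63 had at least 100 TPM, against 30.5% of protein coding genes at 10 TPM. Only Ackr2, a chemokine scavenger, and Vtcn1, a B7-family ligand, were at 0 in all 3 libraries. The lists were written with these data known, so the shares describe the lists and nothing more.

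**Figure D3:**
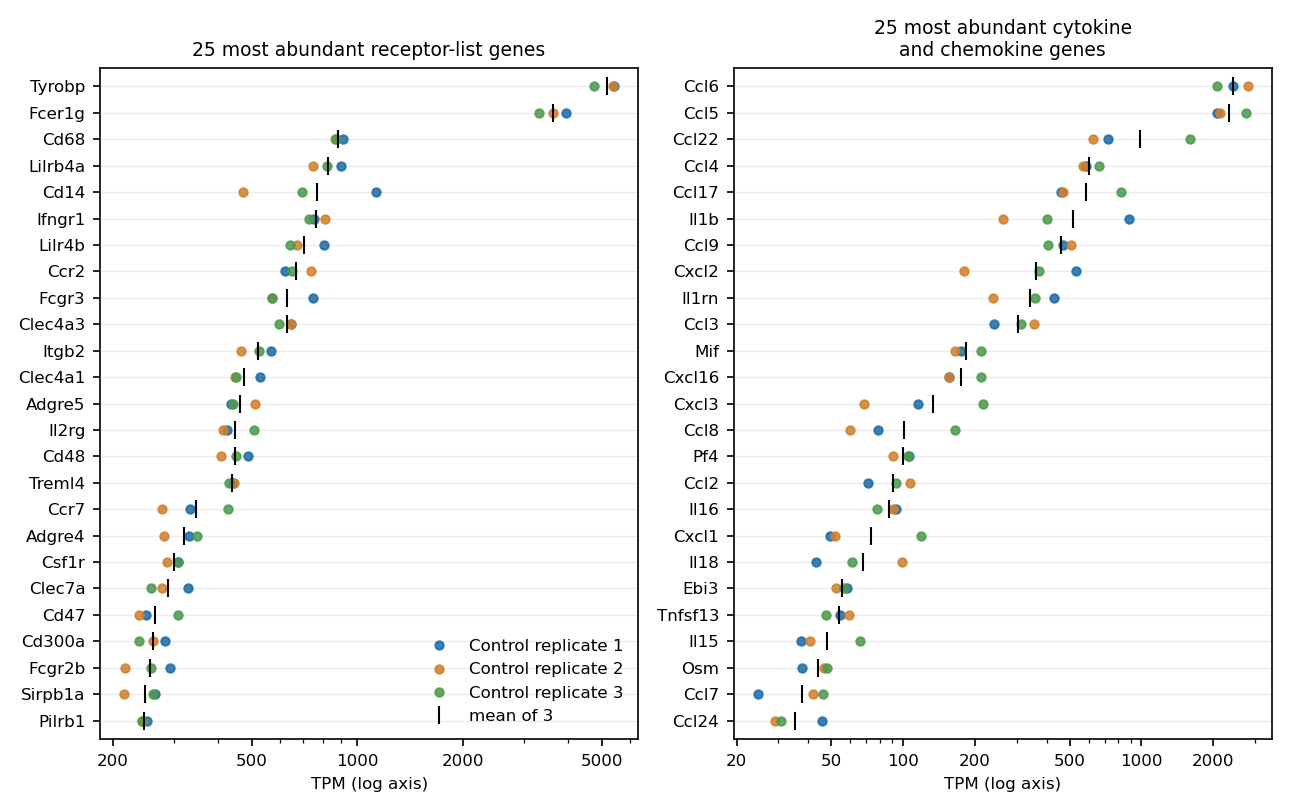
The 25 most abundant genes of the receptor lists (left) and of the cytokine and chemokine lists (right), with the TPM of the 3 Control libraries as coloured points and the mean as a black bar, on log axes. Cd14, Ccl22, Il1b and Cxcl2 show the 3 libraries spread apart, whereas Tyrobp, Ifngr1 and Csf1r show them close together.

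Among receptors of growth and colony-stimulating factors, Csf1r was the most abundant of 21. The common beta chain Csf2rb, shared by the receptors of GM-CSF, interleukin 3 and interleukin 5, stood at 122, 124 and 129.5 TPM, and Csf2ra, the specific chain for GM-CSF, at 63.7, 75.1 and 65.6 TPM. Csf2rb2, a mouse paralog of the beta chain, averaged 37.3 TPM, and Tgfbr1, a kinase receptor for TGF-beta, 36.5 TPM. Csf3r, the receptor for the neutrophil growth factor G-CSF, stood at 162, 84 and 77.3 TPM, with replicate 1 the highest. Of the ligands, Csf1 stood at 10.5, 18.6 and 13.3 TPM, Csf2 at 0, 0.0617 and 0.14 TPM and Csf3 at 5.43, 1.58 and 2.22 TPM. Il34, the other ligand of the CSF1 receptor, was at 0 in all 3 libraries. Csf1r exceeded Csf1 by factors of 29.2, 15.4 and 23.

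Of 24 chemokine receptors 9 had at least 10 TPM, against 30.5% of protein coding genes, and Ccr2 led. Ccr7, which guides mature dendritic cells to lymph nodes, stood at 332, 277 and 429 TPM. Ccr1 stood at 179, 78.3 and 104 TPM and Cxcr4 at 55.2, 37.9 and 37.8 TPM. Ccr1 and Cxcr4 were highest in replicate 1, whereas Ccr7 was highest in replicate 3.

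Other G protein-coupled receptors included Adgre5 (CD97), an adhesion receptor at 436, 511 and 443 TPM, and C5ar1, the receptor for complement C5a, at 213, 167 and 143 TPM. P2ry6, a nucleotide receptor, stood at 156, 145 and 152 TPM and Fpr2, a formyl peptide receptor, at 120.1, 95.2 and 91.1 TPM. C5ar1 and Fpr2 were highest in replicate 1 and P2ry6 was even.

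Fc receptors for IgG were led by Fcgr3 at 750.0, 571 and 572 TPM, an activating receptor that signals through Fcer1g, and the inhibitory Fcgr2b stood at 292, 217 and 258 TPM. Their ratio was 2.57, 2.63 and 2.21. Fcgr4 stood at 106, 69.5 and 81.3 TPM and Fcgrt, the receptor that recycles IgG, at 112, 118 and 128 TPM. The shared chain Fcer1g exceeded Fcgr3 by factors of 5.27, 6.33 and 5.8. The Fc receptor genes resemble each other in sequence, so the division between them is uncertain.

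Of 22 pattern recognition receptors, 16 had at least 10 TPM, and Cd14 alone had at least 100 TPM. The RNA sensors of endosomes Tlr13 and Tlr7 stood at 103, 67.9 and 86.4 and 71.3, 72.1 and 78 TPM. Tlr4, the lipopolysaccharide receptor, stood at 21.1, 16.2 and 14.9 TPM and its partner Ly96 at 69.2, 59.3 and 54.9 TPM. Cd14 thus exceeded Tlr4 by factors of 53.8, 29.3 and 46.6. Tmem173 (STING), the relay of the cytosolic DNA sensor, averaged 68.7 TPM, and Tlr2 averaged 40.5 TPM. Tlr3, Tlr5, Tlr9 and Tlr12 each averaged under 3 TPM.

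Of 19 C-type lectin receptors, 16 had at least 10 TPM. Clec4a3 and Clec4a1, receptors of the DCIR family, stood at 648, 647 and 597 and 527, 446 and 449.6 TPM. Clec7a, the beta-glucan receptor dectin 1, stood at 328, 277 and 258 TPM as a sum over transcripts. Of that sum, Clec7a-204, annotated as a polymorphic pseudogene and not as coding, held 76.1%, 78.9% and 76.5%. The coding Clec7a-202 held 16.6%, 12.9% and 15.9%. Clec4a2 averaged 205 TPM, Cd209a 193 TPM and Clec12a 151 TPM. Cd209a, a gene of monocyte-derived dendritic cells, was lowest in replicate 1.

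Scavenger and apoptotic cell receptors had 16 of 23 members at 10 TPM or more. Behind Cd68, the inhibitory receptor gene Cd300a stood at 283, 261 and 239 TPM, the large endocytic receptor gene Lrp1 at 190.4, 199.9 and 196 TPM and the fatty acid and lipoprotein receptor gene Cd36 at 168, 152 and 139 TPM. Msr1, scavenger receptor A, averaged 145 TPM and Scarb1 77.3 TPM. Trem2, a lipid receptor of tumor and tissue macrophages, stood at 61.2, 62.1 and 71.4 TPM, and its adaptor Tyrobp exceeded it by factors of 88.4, 86.6 and 66.6.

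Integrin genes were led by the shared leukocyte beta chain Itgb2, at 567, 466 and 526 TPM, which exceeded its partner Itgam by factors of 4.45, 4.15 and 4.65. Itgal averaged 179.7 TPM, Itga4 122 TPM, Itgb1 91.3 TPM and Itgb7 56.1 TPM. Among 28 paired immune receptors and adaptors, 24 had at least 10 TPM. The inhibitory receptor gene Lilrb4a and its close relative Lilr4b stood at 897, 749.7 and 823 and 801, 671 and 643 TPM, and a division between the pair is uncertain. Cd48, a ligand of the SLAM family, averaged 448 TPM and Sirpb1a 247 TPM. Of the 28, 18 were highest in replicate 1. The share of all genes highest in each library was not counted. Such counts, here and below, therefore cannot tell a tilt of a list from a tilt of the whole library.

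Among cytokine receptors, Ifngr1, the ligand-binding chain of the interferon gamma receptor, led with 754, 810.4 and 729 TPM. Il2rg, the common gamma chain, stood at 426, 413 and 507 TPM. Il1r2, a decoy receptor that binds interleukin 1 without signalling, stood at 225, 51 and 85.9 TPM. Replicate 1 was far above the other libraries for Il1r2, and the 3 libraries were close for Ifngr1. Il10ra averaged 112 TPM, Il13ra1 95.3 TPM and Il10rb 89.8 TPM. Ifng itself, a product of lymphocytes, stood at 5.36, 3.32 and 4.78 TPM.

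The receptors for tumor necrosis factor, Tnfrsf1b and Tnfrsf1a, stood at 185, 187 and 206 and 158, 169.7 and 183 TPM. Cd40, the receptor that the agonist of this series targets, stood at 145, 102 and 182 TPM, highest in replicate 3 and lowest in replicate 2. Fas averaged 91.1 TPM. Tnfrsf4 (OX40) stood at 66.5, 39.6 and 118 TPM and Tnfrsf9 (4-1BB) at 59.7, 41.3 and 73.6 TPM, with the same order of libraries as Cd40.

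Co-stimulation and checkpoint genes were led by Cd47, the signal that restrains phagocytosis (249.7, 237 and 308 TPM), and its receptor Sirpa (217, 220.4 and 206 TPM). Cd86, a ligand of CD28, stood at 132, 90.6 and 173 TPM. Vsir (VISTA) stood at 104, 135 and 148 TPM, Lgals9 at 119, 105 and 92.1 TPM and Cd274 (PD-L1), the ligand of PD-1, at 77.2, 66.8 and 97.5 TPM. Cd47, Cd86, Vsir and Cd274 were highest in replicate 3, where the mature dendritic cell genes were highest too. The part of those cells in the levels of Cd40, Cd86 and Cd274 was not tested.

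Secreted factors covered a wide range. Of 80 cytokine and chemokine genes, 39 (48.8%) had a mean of at least 10 TPM, 15 had at least 100 TPM and 20 were below 1 TPM. Of 21986 protein coding genes, 30.5% had at least 10 TPM, 1302 had at least 100 TPM and 10469 were below 1 TPM. The chemokines summed to 8272, 8364 and 10122 TPM and the cytokines to 2051, 1276 and 1555 TPM. Ccl6, a chemokine of myeloid cells, stood at 2422, 2787 and 2066 TPM and Ccl5, which attracts T cells and monocytes, at 2080.3, 2143 and 2755 TPM. The inflammatory chemokines Ccl4 and Ccl3 averaged 605 and 303 TPM, and Ccl9 averaged 460.4 TPM.

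The neutrophil attractant Cxcl2 stood at 532, 179 and 373 TPM, highest in replicate 1. Ccl2, the main ligand of CCR2, stood at 70.9, 107 and 93.6 TPM, and its receptor exceeded it by factors of 8.77, 6.9 and 6.95. The interferon-induced attractants of T cells were low, Cxcl10 at 32.2, 33.7 and 27.4 TPM and Cxcl9 at 3.97, 2.51 and 5.22 TPM. Ccl20 was at 0 in all 3 libraries. Of 30 chemokines with at least 1 TPM in some library, 16 were highest in replicate 3.

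Cytokine genes were led by interleukin 1 and its antagonist. Il1b stood at 887, 263 and 399.8 TPM and Il1rn, the receptor antagonist, at 428, 239 and 359 TPM. Il1b was highest in replicate 1 and lowest in replicate 2, as was Il1rn by a smaller factor, and the ratio of Il1b to Il1rn was 2.07, 1.1 and 1.11. Il1b exceeded Tnf by factors of 41, 14.9 and 20.6.

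Of the other cytokines in the first 6, Mif stood at 175, 165 and 213 TPM, Il16 at 93.1, 91 and 77.4 TPM, Il18 at 43.1, 99.3 and 60.9 TPM and Ebi3, a subunit of interleukins 27 and 35, at 58.1, 52.2 and 56.7 TPM. Il18 was highest in replicate 2. Tnf stood at 21.6, 17.6 and 19.4 TPM, Il6 at 13.3, 19.2 and 13.1 TPM, Tgfb1 at 11, 18.9 and 11.1 TPM, Il12b at 13.5, 6.75 and 7.77 TPM and Il10 at 3.85, 0 and 0.0374 TPM. Il10 was above 1 TPM in replicate 1 alone. Il5, Il13, Ifnb1, Il33 and Il34 were at 0 in all 3 libraries.

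Growth factor and matrix genes were led by Psap, the precursor of lysosomal saposins (1119, 875 and 954 TPM), and the galectin gene Lgals3 (844, 988 and 889 TPM). Tgfbi, a matrix protein induced by TGF-beta, stood at 569, 539.6 and 588 TPM, Lgals1 at 428, 459 and 483 TPM and Grn (progranulin) at 209.8, 236 and 233 TPM. Vegfa, the vascular growth factor, stood at 5.61, 9.33 and 3.33 TPM. Of the 32 genes, 12 had at least 10 TPM, against 30.5% of protein coding genes. Below 1 TPM were 11 of the 32, against 10469 of 21986 protein coding genes.

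Of 17 complement genes 7 had at least 10 TPM, against 30.5% of protein coding genes. Cfp (properdin) led at 160.1, 163 and 160.3 TPM. C1qb averaged 87.7 TPM, C1qc 26.9 TPM, C3 55.1 TPM and Cfb 32.1 TPM. Cfd, an adipocyte product, was at 0 in all 3 libraries. Cathepsins were high, Ctss at 2841, 2532 and 2729 TPM, Ctsb at 1424, 1181 and 1464 TPM, Ctsz at 807 TPM and Ctsh at 659 TPM, with the inhibitors Cst3 and Cstb (618 TPM). The urokinase receptor gene Plaur stood at 454, 466 and 466 TPM, nearly equal in all 3 libraries. The metalloproteinase gene Mmp12 stood at 24.3, 92.9 and 67.8 TPM, lowest in replicate 1, and the sheddase genes Adam8, Adam10 and Adam17 averaged 101, 63.4 and 37 TPM. The plasminogen activator inhibitor gene Serpinb2 averaged 38.2 TPM. Mmp10 was at 0.

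Antigen presentation genes stood out by level. Cd74 exceeded the MHC class II chains H2-Aa (5882, 5073 and 5865 TPM), H2-Ab1 (4213, 3757 and 4267 TPM) and H2-Eb1 (2936, 2495 and 3078 TPM). Each of the 4 was lowest in replicate 2. The peptide loading subunits H2-DMa and H2-DMb1 averaged 657 and 424 TPM and did not follow that order. Class I genes were also high, with H2-D1 at 2904, 3004 and 3272 TPM and H2-K1 at 1081, 1060.2 and 1199 TPM, and the non-classical H2-T23 at 466, 485 and 549 TPM, beside the proteasome activator gene Psme2 (1219 TPM) and the immunoproteasome gene Psmb8 (644 TPM). Class I genes are near-identical in places, so the division between them is uncertain.

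Metabolic genes were mostly detected. In lipid handling, where 17 of 19 genes had at least 10 TPM, the fatty acid carrier gene Fabp5 stood at 1039, 934 and 1389 TPM and the lipid droplet gene Plin2 at 512, 472 and 508 TPM. Npc2, which exports cholesterol from lysosomes, averaged 380.1 TPM. Pltp, a phospholipid transfer protein gene, and Soat1, which esterifies cholesterol, averaged 153 and 127 TPM, and the lipoprotein gene Apoe stood at 72.4, 100.3 and 155 TPM, highest in replicate 3. Alox5ap, the partner of 5-lipoxygenase in leukotriene synthesis, stood at 2777, 2969 and 2467 TPM and was the highest of 21 arginine, tryptophan, itaconate and eicosanoid enzymes. Il4i1, a secreted amino acid oxidase, stood at 191, 158 and 394 TPM and was highest in replicate 3. Ass1, which rebuilds arginine from citrulline, averaged 170.0 TPM, and the leukotriene enzymes Lta4h and Ltc4s averaged 54.3 and 35.8 TPM. Of 21 glycolysis and hypoxia genes 18 had at least 10 TPM, led by Aldoa (929), Pkm (820.3), Gapdh (614), Eno1 (488), Ldha (448) and Gpi1 (270.3 TPM).

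Few cell cycle genes were abundant. Of 23, 4 had at least 10 TPM, against 30.5% of protein coding genes, and none reached 100 TPM on average. Their median was 4.22 TPM, against 1.40 TPM over protein coding genes, and 3 were below 1 TPM. Pcna, the DNA clamp of replication and repair, stood at 77.9, 61.4 and 98.3 TPM, and Cenpa, the centromere histone gene, averaged 25.5 TPM. Genes of DNA synthesis were lower, with Tk1 at 19.8, Tyms at 12.7, Mcm5 at 7.72 and Top2a at 6.96 TPM on average. The 24 listed type I interferon response genes were of middle level, 23 at 10 TPM or more and 2 at 100 TPM or more. Of these 2, Irf7 stood at 104, 117 and 115 TPM. The list, which summed to 1073 TPM on average, leaves out the antiviral gene Ifitm3 (3134 TPM). Usp18 averaged 83.3 TPM, Irf9 79.1 TPM, Rtp4 75.9 TPM and Oasl2 62.3 TPM, and of 24 genes 11 were highest in replicate 1, 3 in replicate 2 and 10 in replicate 3.

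Genes that enzymatic dissociation of tissue is known to induce were high. Of 18 such genes 15 had at least 10 TPM and 7 at least 100 TPM. The chaperone gene Hspa8 stood at 1659.7, 1472 and 1970.2 TPM and Zfp36, which shortens the life of cytokine mRNAs, at 909, 908 and 964 TPM. Dusp1, an early response phosphatase, stood at 315, 265 and 187 TPM. Btg2 averaged 165 TPM and the chaperone gene Hsp90aa1 112 TPM. The tumors were digested for 30 min in warm enzyme, and the part of that step in the levels of Fos, Nr4a1, Il1b and Cxcl2 was not tested.

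Markers of other cells were measured over 18 lists. The 152 genes summed to 0.995%, 0.784% and 1.01% of TPM. Of them, 23 also stand on a list of another kind (identity, receptors, secreted factors, programmes or isoforms), so they are not particular to the cell named. The largest lists by summed TPM were mature dendritic cells, neutrophils, erythroid cells, natural killer (NK) cells and B cells with plasma cells. This order depends on the scale. As CPM of the estimated counts, neutrophil genes summed to 882, erythroid genes to 589, B and plasma cell genes to 580 and conventional dendritic cell genes to 611. With transcripts annotated as protein coding only, a class that leaves out the antibody constant genes, the B and plasma cell sum was 96.5 TPM. In bulk samples fewer cells of a type and less RNA per cell cannot be told apart.

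**Figure D4:**
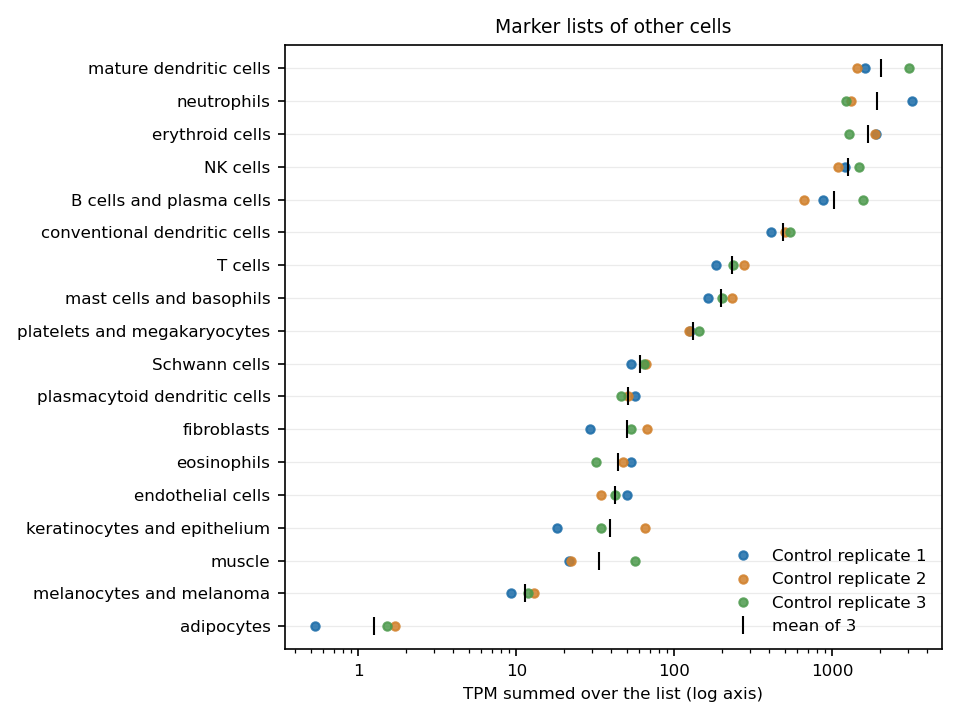
Each row is a marker list of another cell type, with the TPM summed over its genes in the 3 Control libraries as coloured points and the mean as a black bar, on a log axis. Mature dendritic cell genes (1431 to 3046 TPM) and B cell genes (666 to 1563 TPM) are highest in replicate 3, neutrophil genes (1222 to 3199 TPM) in replicate 1, and melanocyte genes stay between 9.24 and 12.9 TPM.

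Mature dendritic cell genes summed to 1621, 1431 and 3046 TPM, and all 6 were highest in replicate 3. Besides Ccl22, Ccr7 and Il4i1 these were Fscn1, an actin-bundling protein (129, 161 and 244 TPM), Nudt17 (155, 139 and 266 TPM) and the calcium channel subunit gene Cacnb3 (88.6, 70.3 and 119 TPM). Conventional dendritic cell genes summed to 409.6, 502 and 543 TPM. Cd209a and the transcription factor gene Batf3 (118 TPM) led, followed by Naaa (89.6), Dpp4 (38.1), Flt3 (30.3) and Zbtb46 (6.49 TPM), while Clec9a and Xcr1, defining genes of the cross-presenting subset, averaged under 3 TPM. Of 5 plasmacytoid genes, 1 had at least 10 TPM, Tcf4 (38.1 TPM), which other cells share: Ly6d averaged 7.26 TPM, and Siglech, Ccr9 and Cox6a2 averaged under 3 TPM.

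NK cell genes summed to 1203, 1085 and 1479 TPM and 7 of 9 were highest in replicate 3. The granule protease gene Gzma stood at 438, 417 and 574 TPM, Nkg7 at 289, 299 and 364 TPM and Klrk1 (NKG2D) at 129 TPM. Ncr1 (NKp46), the defining receptor, stood at 125, 86.6 and 156 TPM, and the cytotoxic granule genes Gzmb and Prf1 at 130.1, 103 and 112 and 53.4, 31.3 and 80.7 TPM. T cell genes were lower, 184, 275 and 236 TPM in sum over 13 genes. The receptor constant genes Trbc1 (30, 63.6 and 40.4 TPM), Trbc2 (36.2, 40.7 and 50.1 TPM) and Trac (16.2, 42.9 and 37.7 TPM) led, with Lck at 37.9 TPM and Cd2 at 30.6 TPM on average, Cd3e at 9.68, 11.3 and 15.2 TPM and Cd4, Cd8a and Foxp3 each under 5 TPM. The T cell sum was lowest in replicate 1.

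B cell and plasma cell genes summed to 867, 666 and 1563 TPM. Nearly all of it came from the antibody genes Igkc (539, 367 and 1191 TPM), Ighm (250.2, 211 and 220.3 TPM) and Jchain (40.8, 47.5 and 108 TPM). Igkc and Jchain were highest in replicate 3 and Ighm was even. The surface genes Cd79b (26.8 TPM), Cd79a (3.7 TPM), Ighd (4.29 TPM) and Ms4a1 (1.79 TPM) were low. All 429 listed immunoglobulin genes took 0.17%, 0.193% and 0.438% of TPM.

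Neutrophil genes summed to 3199, 1307 and 1222 TPM and fell into separate patterns: of 10 members with at least 1 TPM in some library, 5 were highest in replicate 1 and 5 in replicate 2. Without replicate 1 their mean sum was 1264 TPM against 1909 TPM with all 3 libraries. S100a8 and S100a9, subunits of calprotectin, stood at 1439.6, 359 and 473 and 885, 225 and 278 TPM. Cxcr2, the receptor that draws neutrophils from the blood, stood at 60.2, 16.9 and 21.3 TPM. Retnlg, a resistin-like gene, stood at 625, 547 and 351 TPM. Replicate 1 was the highest library for these and for Csf3r. Mmp8, a collagenase of granules, stood at 26.7, 33.1 and 17.8 TPM, highest in replicate 2. The granule genes of immature neutrophils were highest in replicate 2, with Ngp at 0.0366, 22.1 and 1.77 TPM, Ltf at 0, 8.61 and 0.759 TPM and Camp at 0.735, 8.22 and 0 TPM, and Ly6g, the antigen that defines mouse neutrophils, stood at 0, 2.96 and 0.852 TPM. Elane, a protease of the earliest granulocyte stage, was at 0.

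The other lists were small. Mast cell and basophil genes summed to 163, 232 and 201 TPM, led by Ms4a2 (63.3 TPM), Fcer1a (43.8 TPM) and the basophil protease gene Mcpt8 (37.4 TPM), while the mast cell proteases Cma1 and Cpa3 averaged 17.4 and 14.3 TPM, Gata2 averaged 16.6 TPM and Mcpt4 was at 0. Eosinophil genes summed to 52.8, 47 and 31.9 TPM, led by Ear1 (22 TPM) and the eotaxin receptor gene Ccr3 (12 TPM). Ear6 averaged 5.33 TPM, the defining genes Siglecf, Prg2 and Il5ra averaged under 3 TPM, and Epx, the eosinophil peroxidase gene, was at 0. Globin genes were present despite lysis of red cells, Hbb-bs at 696, 707 and 481 TPM and Hba-a2 at 693, 666 and 458 TPM, with the near-identical Hba-a1 and Hbb-bt at 378 and 53.3 TPM on average. The haem synthesis gene Alas2 averaged 6.55 TPM, and the red cell membrane gene Slc4a1 was below 1 TPM. The platelet chemokine gene Pf4, which macrophages can also express, stood at 106, 90.7 and 105 TPM. Ppbp averaged 21 TPM and Itga2b 6.72 TPM, and Gp9, Treml1 and Gp1bb averaged under 2 TPM.

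Tumor and stroma genes were among the lowest lists by summed TPM. The melanocyte and melanoma list summed to 9.24, 12.9 and 11.9 TPM over 11 genes, of which none had 10 TPM. Pmel stood at 3.32, 4.35 and 1.75 TPM, Dct at 1.63, 1.79 and 3.03 TPM, Mitf at 2.92, 2.18 and 5.62 TPM, Mlana at 0.511, 3.82 and 1.25 TPM, Tyrp1 at 0.727, 0.625 and 0 TPM and Tyr at 0.0678, 0.156 and 0.108 TPM, while Sox10, Gpr143 and Slc45a2 were at 0. Fibroblast genes summed to 29.2, 67.5 and 52.8 TPM, lowest in replicate 1. The matrix gene Dcn stood at 7.81, 24.8 and 14.5 TPM, the collagen genes Col3a1, Col1a1 and Col1a2 averaged 8.68, 7.68 and 5.48 TPM, and Lum and Acta2 averaged 4.23 and 3.17 TPM. Endothelial genes summed to 50.5, 34.2 and 41.8 TPM, mostly Pecam1 (26.4 TPM), a gene that leukocytes share, and Vwf (8.03 TPM). Esam averaged 4.86 TPM and Egfl7 1.64 TPM, the defining genes Cdh5, Kdr and Tie1 were below 1 TPM, and Tek was at 0. The Schwann cell sum of 52.9, 65.8 and 64.1 TPM was nearly all Mbp (51.4, 65.5 and 63.7 TPM), a gene that also has transcripts in blood cells, while S100b averaged under 1 TPM and Sox10 was at 0. Muscle genes summed to 21.4, 22.1 and 56.5 TPM (mean 33.4, and 21.8 without replicate 3), with Acta1, Myl1, Tnnt3 and Tnnc2 averaging 10.6, 7.24, 6.85 and 6.36 TPM, Ckm and Myh1 averaging 2.05 and 0.259 TPM, and Des and Myh4 at 0. Adipocyte genes summed to 0.531, 1.71 and 1.53 TPM, with Adipoq and Plin1 averaging 0.774 and 0.482 TPM and Cfd, Lep and Cidec at 0.

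The transcripts of a gene were usually shared out the same way in all 3 libraries. Of 6059 genes with at least 10 TPM and at least 2 listed transcripts, 4889 (80.7%) had the same leading transcript in all 3 libraries. A dominant transcript, with over 50% of the gene's TPM in every library, was present in 3761 genes (62.1%), and in 1001 (16.5%) it held over 90%. Among 4847 protein coding genes with a stable leading transcript, 530 (10.9%) were led by a transcript not annotated as coding, of which 222 were retained introns, 185 processed transcripts and 122 targets of nonsense-mediated decay. The lengths of these 530 transcripts and the reads that tell them from coding forms were not examined, so their part is uncertain.

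Of the label markers, Lyz2 has 1 listed transcript. Cd74-201, the short form of the invariant chain mRNA, held 82.3%, 81.8% and 80.2% of Cd74 and the longer Cd74-202 held 17.6%, 18.1% and 19.7%. Csf1r-201 held 93.3%, 92% and 95.2% of Csf1r. All 3 markers therefore rest on coding transcripts. For Cd40 no transcript was dominant, since the coding Cd40-202 held 45.4%, 44.3% and 41.4% and the decay target Cd40-207 held 17.3%, 13.6% and 19.8%.

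Pkm, the pyruvate kinase gene, was spliced in nearly a single way. Its transcripts Pkm-201 and Pkm-202 take 1 of a pair of mutually exclusive exons. Pkm-201 carries the downstream exon, which encodes the M2 type typical of proliferating cells and leukocytes, and held 93.9%, 92.7% and 92.6% of the gene's TPM. Pkm-202, with the upstream exon of the M1 type of muscle and brain, held 1.8%, 5.28% and 4.53%. Both exons are 167 bases long and differ at 64 positions (61.7% identity), shown in capitals, so that reads can tell them apart. They lie on the plus strand of GRCm38 at chr9:59675568-59675734 (Pkm-201) and chr9:59675029-59675195 (Pkm-202).
Pkm-201: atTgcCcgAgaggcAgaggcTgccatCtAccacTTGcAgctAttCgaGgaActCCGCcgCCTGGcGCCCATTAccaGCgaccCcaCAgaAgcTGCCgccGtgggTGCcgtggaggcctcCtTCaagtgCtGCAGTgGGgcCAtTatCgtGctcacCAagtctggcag
Pkm-202: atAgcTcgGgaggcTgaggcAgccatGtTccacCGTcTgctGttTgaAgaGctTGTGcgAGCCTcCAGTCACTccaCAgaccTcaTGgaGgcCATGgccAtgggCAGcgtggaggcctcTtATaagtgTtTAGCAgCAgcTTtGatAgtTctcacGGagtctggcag
The M2-type exon thus dominated in each library, and the share of the M1-type form was lowest in replicate 1.

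Ptprc, the leukocyte antigen CD45, was led by Ptprc-203, with 53.4%, 54.1% and 48.1% of the TPM, ahead of Ptprc-204 with 12.3%, 16.4% and 17.8%. Ptprc-203 has a 72-base coding exon that Ptprc-204 lacks, on the minus strand of GRCm38 at chr1:138116954-138117025. CD45 is present on all nucleated blood cells and is known for its splice forms, and the exon is printed since the leading transcripts differ by it.
Ptprc-203: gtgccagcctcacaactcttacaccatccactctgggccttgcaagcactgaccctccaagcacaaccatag
Cd44, the hyaluronan receptor, was led by Cd44-207 with 61.9%, 66.7% and 60.1%, ahead of Cd44-203 with 21.7%, 22.4% and 23.4%. Cd44-207 has 5 coding exons, 636 coding bases in all, that Cd44-203 lacks. The whole transcripts are 5045 and 2848 bases long. Both genes kept the same leading form in all 3 libraries.

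Other receptors and ligands differed in how settled they were. Fcgr3-201 held 81.9%, 79.1% and 79.7% and Fcgr2b-202 held 82.3%, 79.8% and 79% of their genes. Il4ra was led by the decay target Il4ra-205 with 72.3%, 73.4% and 80.4%, while the coding Il4ra-201 held 22.3%, 17.7% and 18.3%. Fn1 was led by Fn1-202, a retained intron of 4022 bases, with 66.6%, 72.5% and 67.9%, and the leading coding form, Fn1-214, held 4.6%, 4.15% and 4.65%, so the level of Fn1 given by its sum is mostly not that of its coding form. For Ctsb the retained intron Ctsb-202 held 58.8%, 58.1% and 60.1% against 40.8%, 41.7% and 39.3% for the coding Ctsb-201. Ccl6 was the most abundant chemokine by the mean of its sum (2425 TPM, against 2326 TPM for Ccl5), but was below Ccl5 in replicate 3. It was led by the retained intron Ccl6-202 with 60.9%, 61.2% and 61.2%. Its coding form held 38.7%, 38.4% and 38.3%, which is 938, 1071 and 791 TPM. Rps18, Tpt1, Ppia, Rpsa, Rpl35 and Ptp4a2, of translation and housekeeping for the most part, were likewise led by a transcript not annotated as coding.

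Spp1-202 led osteopontin with 82.5%, 82.3% and 82.8% and Axl-201 led the Axl kinase with 94.4%, 97.6% and 98.2%. Apoe-209 held 69.9%, 71% and 67.4%, Il1rap-201 69.9%, 86.2% and 71.6% and Il15-202 49.5%, 55% and 54.4%, while Tpm1 had no dominant form (Tpm1-212 37.6%, 31.3% and 43.6%).

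Some genes were led by a transcript that is not coding, or by different transcripts in different libraries. Mertk-202, a processed transcript, held 86.2%, 35.3% and 66.2% and the coding Mertk-201 held 13.8%, 64.7% and 33.8%. For Tgfb1 the retained intron Tgfb1-204 held 34%, 29.2% and 49.7% and the coding Tgfb1-201 held 28.6%, 17% and 13.2%. The leader was not the same in all 3 libraries for Fxyd5, Fyb, Prdx5, BC028528, Adgre5, Ccl9, Hnrnpa2b1, Rbm39 and Slpi. These were 9 of the 10 most abundant such genes. Single libraries could set the leading pair apart, with Adgre5-201 at 36.6% and Adgre5-203 at 25.7% in replicate 3. By mean share the pair was close in each gene. Slpi-201 and Slpi-202, for example, held 52.4%, 49% and 49.9% and 47.6%, 51% and 50.1%, and Ccl9-201 and Ccl9-202 held 47.3%, 57.1% and 48.9% and 52.7%, 42.9% and 51.1%.

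The spread between the 3 libraries fell with the level of the gene. Over the 6974 genes with a mean of at least 10 TPM, the median coefficient of variation was 15.6%, 1980 genes (28.4%) varied by 10% or less and 232 (3.33%) by more than 50%. Without replicate 1, 384 genes varied by more than 50% over the remaining pair. The median was 55.7% for genes between 1 and 3 TPM and 7.90% for genes of 1000 TPM or more, where counting error alone would give 11.8% and 0.548%. Across 12602 genes with a mean of at least 1 TPM, Pearson's r of log2(TPM + 1) between pairs of libraries was 0.941, 0.948 and 0.934, a description across genes, which are not independent replicates. No pair was identical. A single group of 3 gives no test of where the spread came from.

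**Figure D5:**
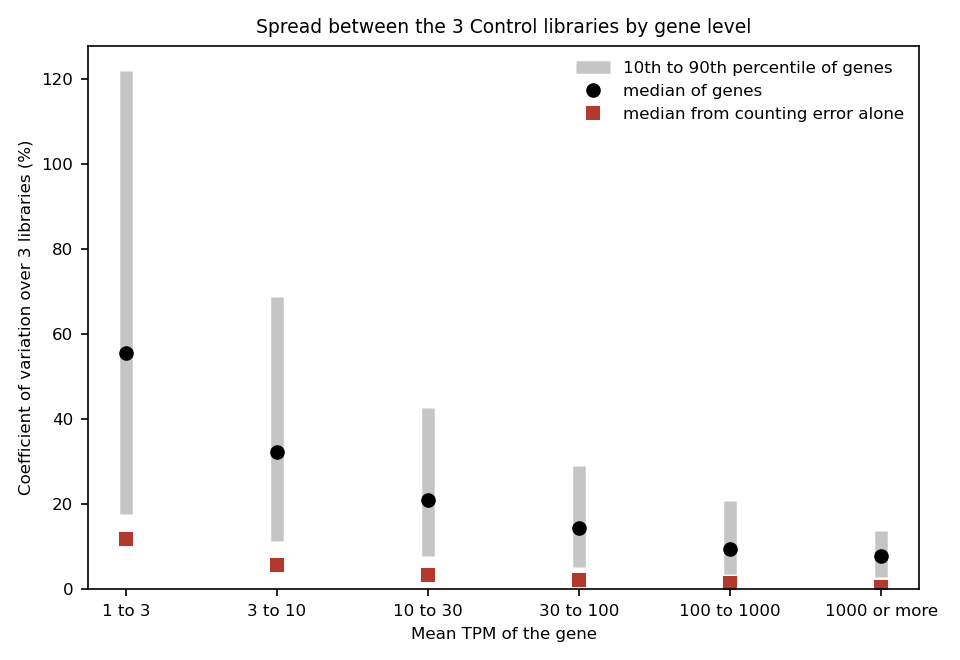
Coefficient of variation over the 3 Control libraries (percent of the mean, linear axis) by the mean TPM of the gene, with the median of genes as black points, the 10th to 90th percentile as grey bars and the median that counting error alone would give as red squares. The median falls from 55.7% to 7.90% with level and stays above the counting value in every class.

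The most even genes had varied roles. Among genes with at least 100 TPM, the 10 lowest coefficients of variation were those of Snrpe, Tma7, Isca2, Rpl26, Coro1a, Lgmn, Nfkb1, Prr13, Trafd1 and Dynlrb1, from 0.24% to 0.76%. Snrpe, a core protein of the splicing machinery, stood at 356, 355 and 357 TPM. Coro1a, an actin regulator of leukocytes, stood at 1588, 1594 and 1603 TPM, and Lgmn, a lysosomal protease of antigen processing, at 301, 298 and 299 TPM. With 3 libraries, some genes reach so low a value by chance, and they were picked for it.

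The most variable genes were mostly antibody genes. Of the 15 highest coefficients of variation, 13 belonged to immunoglobulin genes (Ighv4-1, Ighv9-4, Igkv4-53, Igkv6-17, Iglv1, Ighv4-2, Igkv2-112, Ighv1-39, Ighv9-3, Igkv3-1, Ighg2c, Igkv3-2 and Ighv3-2), each high in 1 library and below 1 TPM in the others. Ighg2c, the constant region of an IgG class, stood at 0, 0.216 and 107 TPM. The others were Sdr16c6 (0, 39 and 0 TPM), a short-chain dehydrogenase gene, and Elovl4 (0.0136, 45.5 and 0 TPM), a fatty acid elongase gene, both high in replicate 2 alone.

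Among protein coding genes 172 varied by more than 50%. Each must be highest in some library, so a set for every library was to be found in any case. Of the 172, 52 were highest in replicate 1, 58 in replicate 2 and 62 in replicate 3. In replicate 2 these included Scd1 (2.15, 88.3 and 3.7 TPM), a fatty acid desaturase, Elovl3 (0, 37.1 and 1.13 TPM), Elovl6 (3.78, 35.9 and 6.18 TPM), Far2 (2.79, 31 and 4.72 TPM) and the basal keratinocyte gene Krt14 (2.92, 38.3 and 3.85 TPM). Krt5, the partner of Krt14, stood at 2.37, 5.35 and 2.82 TPM. Krt10 and Krt15 averaged 3.26 and 0.618 TPM, the epithelial adhesion genes Cdh1 and Epcam stood at 7.19, 11 and 18.1 and 2.28, 6.11 and 4 TPM, and the keratinocyte list summed to 18.1, 65 and 34.3 TPM. Scd1 and Elovl3 are known from sebaceous glands. Most of the keratinocyte sum of replicate 2 was Krt14 itself, and of the members with at least 1 TPM in some library 3 were highest in replicate 2 and 3 in replicate 3. The part of skin cells in the levels of Scd1, Elovl3, Elovl6 and Far2 was not tested.

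In replicate 1 the variable genes included the interleukin 36 gene Il1f9 (37.4, 5.72 and 10.6 TPM), the mitochondrial arginase gene Arg2 (45.3, 5.89 and 13.2 TPM), the niacin receptor gene Hcar2 (57.5, 9.28 and 20 TPM) and the iron-scavenging lipocalin gene Lcn2 (45.3, 18.2 and 9.58 TPM), beside S100a8, S100a9, Cxcr2, Il1r2 and Il1b. S100a8, S100a9 and Cxcr2 are themselves members of the neutrophil list, so their order restates that of its sum. The part of neutrophils in the levels of Il1b, Il1r2 and Cd14 was not tested. In replicate 3 they included Klri1 (24.3, 21.7 and 83.5 TPM), a lectin receptor of NK cells, and Il2ra (9.74, 11.7 and 31.6 TPM), the high-affinity chain of the interleukin 2 receptor, beside Ccl22. Ccl22 is itself a member of the mature dendritic cell list, and 7 of 9 NK cell genes were highest in replicate 3.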

How the data were processed

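Each deposited table lists 111462 transcripts with a length, an effective length, an expected (estimated) count and a TPM, per the file headers. In the deposited files TPM adds up to 1000000 per library, and the authors' estimated counts are not normalized. Per the submitters' processing notes the tools were STAR, HTSeq and DESeq2 on mm10, none of which writes this layout, and a quantifier was not given in the sources used here. With version numbers removed, 110203 transcripts (98.9%) matched GENCODE M21 (GRCm38). The unmatched 1259 held 0.413% to 0.436% of counts and were left out. TPM was summed per gene in Python 3.11.15 with pandas 2.3.3. Coordinates are 1-based GENCODE M21 positions. Sums, shares, coefficients of variation (mean TPM 10 or more) and transcript shares were computed for the 3 Control libraries, with no test, and the code was checked on simulated data.

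Lists (51, with 788 symbols, of which Ly6a2, Mb21d1, C5 and Ahsp were not matched) and members were chosen with earlier results of these data known. Named, apart from those not reported, were the 30 most abundant genes and 5 mitochondrial genes, the 6 highest and the 0 members of each list, all macrophage markers, the 15 most and 10 least variable genes, the isoform list and close paralogs, and, chosen after their values were seen, Arg2, Camp, Ccl2, Ccl3, Cd274, Cd4, Cd8a, Cdh5, Clec9a, Csf2, Csf3, Cxcl10, Cxcl2, Cxcl9, Elovl3, Elovl6, F13a1, Far2, Foxp3, Gata6, Hcar2, Ifng, Il10, Il12b, Il1f9, Il2ra, Il6, Irf8, Klri1, Lcn2, Ltf, Ly6g, Ms4a1, Ngp, Nos2, Pparg, Scd1, Slc4a1, Tlr12, Tlr3, Tlr4, Tlr5, Tlr9, Tnf and Xcr1. Libraries carry no strand, so overlapping genes cannot be told apart, and near-identical copies share reads. The full genotype and some genes of these lists and rankings are not reported here. Alternatives were CPM of the estimated counts, coding transcripts only, no mitochondrial genes, other TPM minimums, leaving out each library and, added after seeing the data, no transcripts under 300 bases and no immunoglobulin or T cell receptor genes.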

Additional observations from a re-analysis of the deposited data

How the results depend on the processing

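No paired analysis was possible because 1 group is described and no result comes from a test. On CPM of the estimated counts, which do not divide by length, Csf1r stood at 890.2 and Cd74 at 18665, the macrophage markers summed to 40282 and the other-cell markers to 7778, and the 100 most abundant genes held 28.8%. With coding transcripts only that share was 33.8% and the other-cell sum 7781 TPM (9281 with all transcripts). Without transcripts under 300 bases the share was 38.0%, and without mitochondrially encoded genes the macrophage markers summed to 44026 TPM. The median coefficient of variation, here as a fraction of the mean, was 0.227 from 1 TPM and 0.108 from 50 TPM, and 0.119 to 0.137 when each library was left out in turn. Genes with a coefficient above 0.5 numbered 2334 from 1 TPM, 28 from 50 TPM, and 243 to 384 when each library was left out, 384 without replicate 1. Genes with a dominant transcript numbered 1568 from 50 TPM. Of the 18 other-cell lists, 12 moved by more than 1 SD on CPM, 6 with coding transcripts only and 0 without mitochondrial genes. Depth limits little above 10 TPM, and 3 pools limit every spread.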
